A study of Mus musculus with 18 samples.

Results

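Dorsal root ganglion (DRG) and epidermis of naive control mice were compared with each other, on 6 of the 18 arrays of the series. They were chosen by their labels, 3 arrays of naive control DRG and 3 of naive control epidermis. These mice were K14Cre-Trpa1+/+, which express Cre recombinase from the keratin 14 promoter and carry the unfloxed Trpa1 gene, and the labels call them wild type. Cre was therefore present in keratinocytes of both sets of animals, and no array came from mice without it. They were adult males on a mixed C57BL/6, CBA and Swiss Webster background. The ganglia were lumbar, and the epidermis was peeled from glabrous hindpaw skin after dispase, an enzyme that separates it from the dermis, which the ganglia did not receive. Tissue and dissection therefore cannot be told apart in these data. The 3 arrays of a tissue are the study's biological replicates, and the sources used here do not say whether ganglia and skin were taken from the same animals.

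The DRG houses sensory neuron cell bodies, whose axons supply skin, muscle and viscera, each wrapped by satellite glial cells, along with Schwann cells, vessels, fibroblasts and macrophages. Its neurons reach the epidermis only as fine axon endings, so their cell bodies and nearly all of their RNA stay in the ganglion. The epidermis is a sheet of keratinocytes that divide in the basal layer, differentiate as they move outward and end as cornified cells held together by desmosomes and sealed by lipid. Touch, heat, cold and itch begin where the endings of the one tissue meet the cells of the other, and keratinocytes also release ATP, cytokines and growth factors for which sensory neurons carry receptors.

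Each array gave a log2 signal for 35556 rows, each a set of probes for a transcript or locus. The deposited values had a common distribution within a tissue but not between the tissues, with array medians of 6.51 to 6.58 in DRG and 5.37 to 5.41 in epidermis, so a log2 difference between the tissues mixes biology with normalization. Every row was therefore turned into its percentile rank among all 35556 rows of its own array, from near 0 for the dimmest to near 100 for the brightest. A difference is the mean percentile in DRG minus that in epidermis, in percentile points. Percentiles of different genes come from different probes and were not set against each other. Ranks correlated at 0.991 to 0.992 between DRG arrays, at 0.987 to 0.988 between epidermis arrays, and at 0.794 to 0.8 between a DRG array and an epidermis array. Background was set at the 95th percentile of 1218 rows for odorant, vomeronasal and trace-amine receptors on the same array, and lay at a mean percentile rank of 36.8 in DRG and 36 in epidermis. Between 63.1% and 63.4% of rows exceeded it in DRG, and between 63.7% and 64.2% in epidermis. Values below background have no order, so where the lower tissue was below it on all 3 arrays the difference is given as "at least" the distance from the brighter mean to that background. With 3 arrays to a tissue the precision of each value is limited, and in bulk tissue fewer cells of a type and less RNA per cell cannot be told apart.

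The labelled tissues carried their defining markers. Neuronal Nefl, a neurofilament subunit, had percentiles of 99.8, 99.8 and 99.8 in DRG, against 18.1, 26.3 and 23.2 in epidermis, and the satellite glial gene Fabp7 had 99.6, 99.6 and 99.6 in DRG, against 32.7, 24.4 and 27.01 in epidermis. Krt14, the basal keratin whose promoter drives Cre in these mice, had 34.1, 35.5 and 42.8 in DRG, against 99.4, 99.4 and 99.5 in epidermis. The groups were far apart for all 3 genes. Keratin percentiles were not even among the DRG arrays. In replicate 3 Krt10, a keratin of the layers above the basal one, had a percentile of 65.9, against 47.7 and 46.4 in replicates 1 and 2, and Krt1, its partner in the filament, had 43.3 in replicate 3, against 25.2 and 32.2 in the others. The mean percentile of 10 keratins of differentiating keratinocytes was 36.1, 37.7 and 41.1 on the 3 DRG arrays, against 90.85 to 91.79 in epidermis. Without DRG replicate 3 1957 rows were higher and 1293 lower in DRG under the stricter of the call rules given below. Most other epidermal lists were not highest in replicate 3. On DRG replicates 1, 2 and 3 the mean was 58.38, 58.59 and 57.98 for basal keratinocyte genes. It was 28.27, 29.06 and 27.95 for cornified envelope genes. Of the other epidermal lists only desmosome genes were highest in replicate 3, at 36.57, 36.54 and 37.23. The part of keratinocyte RNA in DRG replicate 3 was not tested further.

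**Figure D1:**
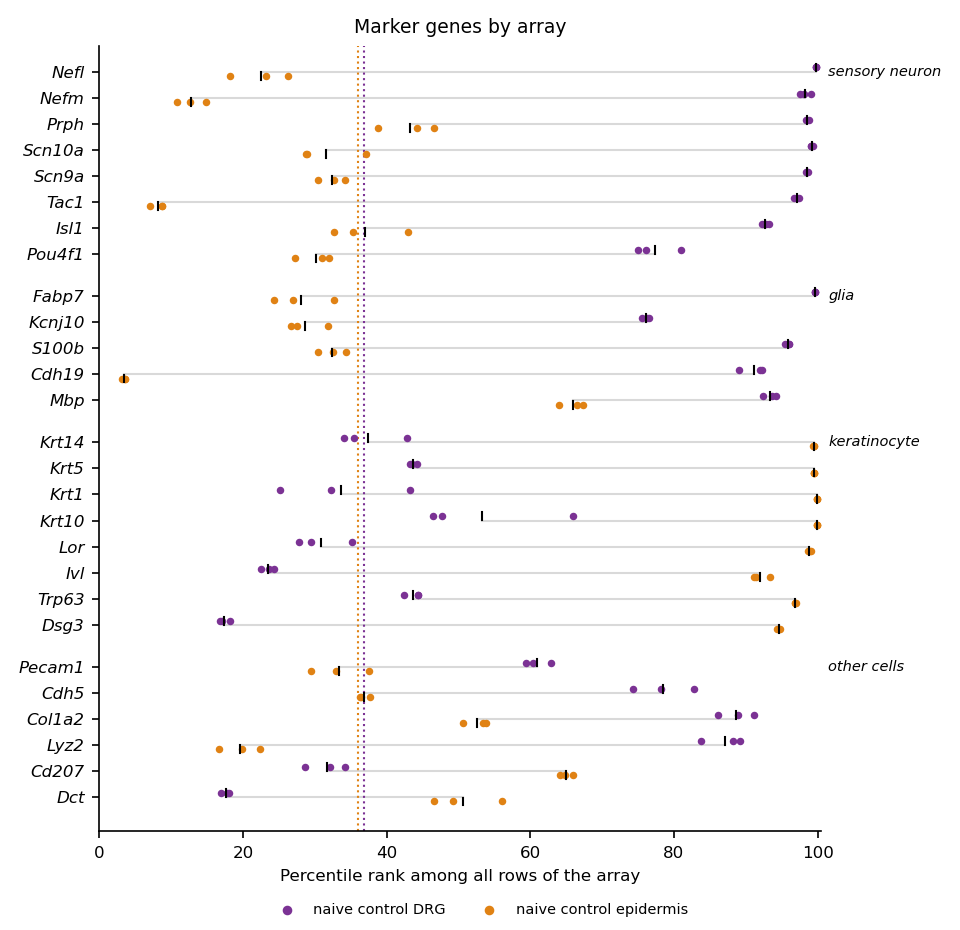
Percentile rank of marker genes of sensory neurons, glia, keratinocytes and other cells on each of the 3 naive control DRG arrays (purple) and the 3 naive control epidermis arrays (orange). Black ticks are group means and dotted lines the mean background percentile of each tissue. Neuronal and glial markers lie above background in DRG and most lie near or below it in epidermis, keratinocyte markers do the reverse, and 1 DRG array stands to the right of the others for Krt1 and Krt10.

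Between the tissues, 8061 of 23410 rows paired with at least 1 gene were higher in DRG (34.4%) and 8242 were lower (35.2%) at an adjusted p under 0.05. The p-values are two-sided, come from limma's moderated linear model of each row, in which the variance borrows from the other rows, and are adjusted by Benjamini-Hochberg over the 23410 rows. They measure the spread between these arrays only. Since replicates differed by little, with a median standard deviation of 1.29 points in DRG and 1.25 in epidermis, small differences passed. The text therefore calls a row higher or lower when its mean also differed by at least 25 points, which 1948 rows did upward (8.32%) and 1290 downward (5.51%). The median difference over all rows was -0.11 points. The DRG and epidermis arrays did not overlap for 75.7% of rows. Among the called rows, 1012 of the 1948 were below background on all epidermis arrays and 571 of the 1290 on all DRG arrays. With the lower tissue put at its background in such rows, 1632 remained at least 25 points higher and 1136 at least 25 points lower. By contrast, 14318 rows exceeded background on all 6 arrays and 5030 on none.

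**Figure D2:**
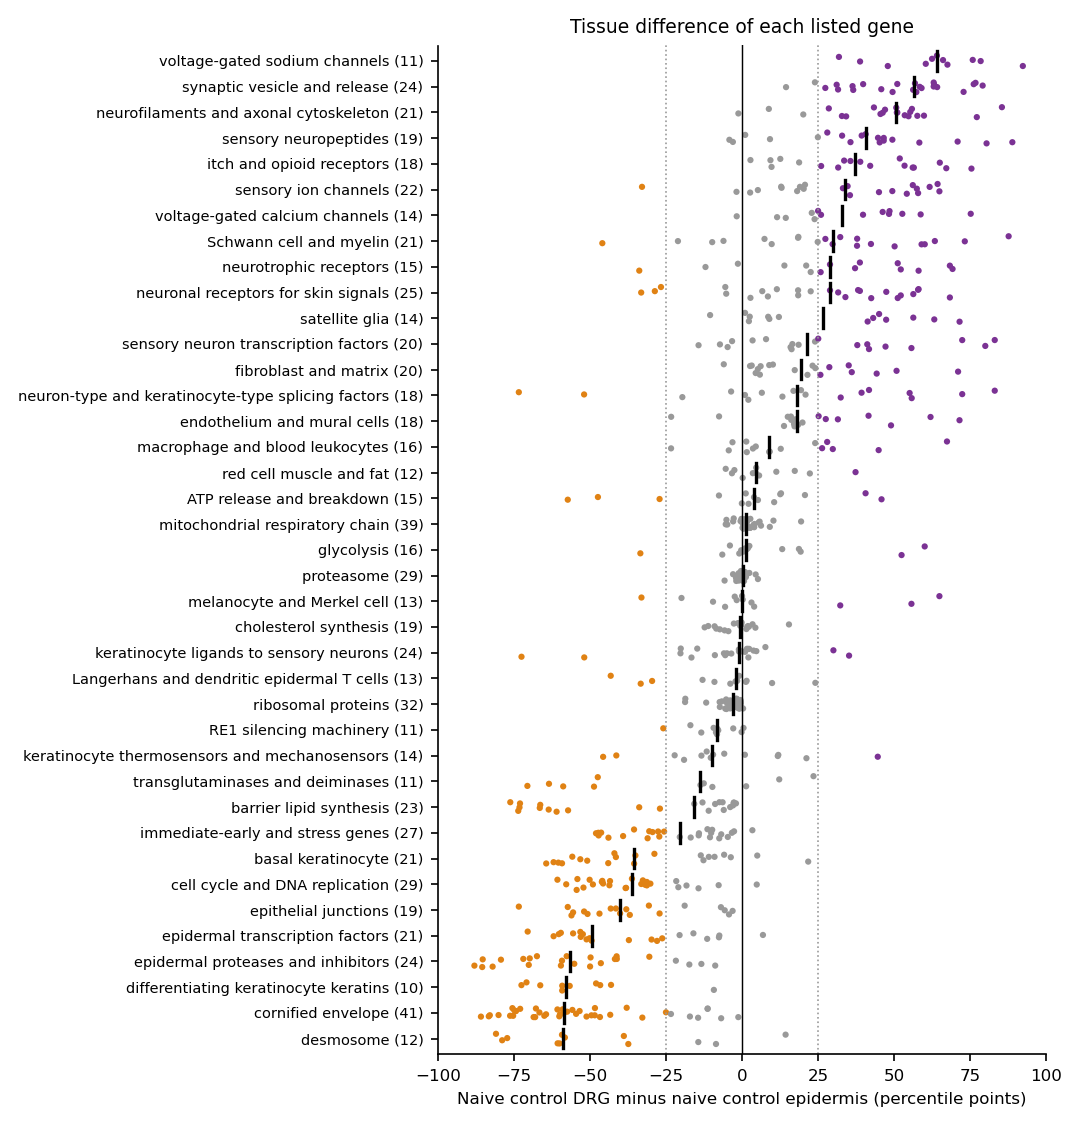
Difference in percentile rank, naive control DRG minus naive control epidermis, for every measured gene of 39 lists (number of genes in brackets). Points are genes, purple where at least 25 points higher in DRG, orange where at least 25 points lower and grey otherwise, and black bars are list medians, which run from 64.13 points for sodium channels to -58.72 points for desmosome genes.

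Scn7a and Tac1 were among the 15 genes with the widest differences upward by measured percentile. Scn7a, a sodium channel found in glia and some neurons, had percentiles of 99.3, 99.2 and 99.2 in DRG, against 6.72, 6.13 and 7.60 in epidermis, and was at least 63.2 points higher in DRG (adjusted p = 1.66e-08). Tac1, which encodes the precursor of substance P, the neuropeptide of many pain fibres, had 96.8, 97.2 and 97.4 in DRG, against 8.75, 7.05 and 8.75 in epidermis, at least 61.1 points higher (adjusted p = 1.66e-08). Prph, the type III intermediate filament of peripheral neurons, had 98.8, 98.4 and 98.5 in DRG, against 38.8, 46.6 and 44.3 in epidermis, 55.4 points higher (standard error 1.96, adjusted p = 1.72e-06). All 3 were near the top of every DRG array, and of them only Prph exceeded background in epidermis. Prph was not among the 15. Others of them were Ppef1, a phosphatase with calcium-binding motifs, Nrn1, a secreted neuritin of growing axons, Chn1, a Rac-inactivating protein of axon guidance, Grik1, a kainate receptor subunit, Lgi1, a secreted synaptic protein, and Adam22, its receptor. In each of these the DRG arrays lay at or above 93.7 and the epidermis arrays at or below 14.7, so that the differences were at least 58.3 to 63.3 points. The rest of the 15 were Ano3, of the anoctamin family, Dpp10, an auxiliary protein of potassium channels, Rgs7, a regulator of G proteins, and Smarca1, a chromatin remodelling enzyme, at least 62.2, 57.5, 56.2 and 53.3 points higher, and Cdh19, Nefm and Elavl4, given below with their lists.

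Serpinb7 and Pof1b were among the 15 genes with the widest differences downward, and Lor, which was not, is given with them because its promoter is shown. Serpinb7, a protease inhibitor of the upper epidermis, had percentiles of 2.84, 3.85 and 2.14 in DRG, against 96.5, 96.9 and 96.7 in epidermis, and was at least 59.9 points lower in DRG (adjusted p = 1.66e-08). Pof1b, an actin-binding protein of epithelial junctions, had 7.11, 8.59 and 8.97 in DRG, against 98.8, 98.8 and 98.8 in epidermis, at least 61.98 points lower. Lor, which encodes loricrin, the main protein of the cornified envelope, had 27.8, 29.5 and 35.2 in DRG, against 98.6, 99.1 and 98.9 in epidermis, at least 62.04 points lower (adjusted p = 6.66e-07), with its highest DRG value in the array that was also highest for Krt10. None of these 3 exceeded background in DRG. The same held for Il1f6, an interleukin-1 family cytokine of keratinocytes, Csta1, a cysteine protease inhibitor of the cornified envelope, Sdr16c5 and Sdr16c6, neighbouring retinol dehydrogenase genes on chromosome 4, and Serpinb3a, Serpinb3d, Serpinb11 and Serpinb12, clustered with Serpinb7 on chromosome 1, whose differences were at least 49.4 to 61.6 points. The rest of the 15 downward were Fads2b, Aadacl2, Fam83b and Abhd12b, at least 61.1, 58.2, 60.4 and 55.6 points lower, and Lce1f, given below. Rows for members of such gene families can share probes with close relatives.

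The promoters of 3 of these genes, a neuropeptide and a filament gene of the ganglion and an envelope gene of the epidermis, are printed because they differ in the short motifs they carry. Each sequence runs 5′ to 3′ on the gene's own strand, from 250 bases before its start to 50 after (RefSeq, GRCm38.p6), and capitals mark matches to any of 4 motifs, searched on both strands. These were the TATA box, spelled TATAAA, the site of AP-1, the factor made of Fos and Jun proteins, spelled TGANTCA, a homeodomain core, spelled TAATTA, and the GC box, spelled GGGCGG. Positions count bases from the start of transcription.
Tac1, chr6:7554811-7555110, plus strand: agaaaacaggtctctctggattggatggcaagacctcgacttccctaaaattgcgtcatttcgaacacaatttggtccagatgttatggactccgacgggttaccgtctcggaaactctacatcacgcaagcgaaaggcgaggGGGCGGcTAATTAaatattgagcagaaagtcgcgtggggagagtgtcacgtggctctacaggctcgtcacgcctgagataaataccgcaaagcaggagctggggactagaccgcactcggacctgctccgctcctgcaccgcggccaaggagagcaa
Prph, chr15:99054924-99055223, plus strand: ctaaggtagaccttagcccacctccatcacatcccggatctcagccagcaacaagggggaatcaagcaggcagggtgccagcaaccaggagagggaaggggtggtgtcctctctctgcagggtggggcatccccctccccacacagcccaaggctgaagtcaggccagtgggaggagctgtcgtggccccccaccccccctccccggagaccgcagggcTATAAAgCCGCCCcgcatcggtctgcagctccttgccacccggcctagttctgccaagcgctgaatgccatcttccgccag
Lor, chr3:92083093-92083392, minus strand: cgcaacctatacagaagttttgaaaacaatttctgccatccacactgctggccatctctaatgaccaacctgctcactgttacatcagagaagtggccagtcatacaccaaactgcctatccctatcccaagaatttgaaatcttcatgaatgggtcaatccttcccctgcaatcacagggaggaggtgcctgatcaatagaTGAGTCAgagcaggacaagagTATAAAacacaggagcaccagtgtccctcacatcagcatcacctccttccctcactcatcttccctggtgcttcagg
Tac1 held a GC box whose first base lay at -107 and a homeodomain core at -100. Prph held a TATA box at -31 and a GC box on the reverse strand at -24. Lor held an AP-1 site at -48 and a TATA box at -27. The promoter of Krt14, searched as well and not printed, held no match to any of the 4 motifs. Among genes at least 50 points higher in DRG, 382 of 508 had a promoter in the table, and 8.9% of these held a TATA box, 4.97% an AP-1 site, 2.62% a homeodomain core and 47.9% a GC box. Among genes at least 50 points lower in DRG, 246 of 338 had a promoter, and the shares were 22.8%, 20.3%, 8.94% and 32.5%. Over the 15563 promoters of all measured genes they were 12.1%, 6.97%, 4.33% and 49.9%, and over all 27025 promoters listed 14.2%, 7.93%, 5.31% and 35.9%. A match describes the letters only.

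Sodium channel genes were higher in DRG without exception. The list holds voltage-gated channels, which carry the upstroke of the action potential, the auxiliary subunits Scn2b, Scn3b and Scn4b, and Scn7a, given above. All 11 measured genes were called, with a median difference of 64.13 points, or 10 of 11 with a median of 55.58 points where dim members were put at background, and none was above background on all 3 epidermis arrays. Scn9a encodes Nav1.7, a channel needed for pain in humans and mice, and had percentiles of 98.7, 98.4 and 98.6 in DRG, against 32.6, 34.3 and 30.4 in epidermis, at least 62.6 points higher. Scn10a, which encodes the pain-fibre channel Nav1.8, had 99.4, 99.1 and 99.1 in DRG, against 37.1, 28.8 and 28.9 in epidermis, 67.6 points higher (adjusted p = 1.5e-06), and was just above background on 1 epidermis array. Scn11a, for Nav1.9 of the same fibres, had 98.9, 98.5 and 98.5 in DRG, against 22.9, 23.3 and 21.9 in epidermis, at least 62.6 points higher. The narrowest difference of the list was that of Scn3a, a channel more prominent in the embryo, with 49.5, 46.8 and 49.6 in DRG, against 15.6, 18.9 and 15.6 in epidermis. It was at least 12.6 points higher and is named after its values were seen. Of 14 voltage-gated calcium channel genes 9 were higher in DRG and 0 lower (median 32.91 points), led by Cacna2d1, the auxiliary subunit bound by gabapentin, at 93.5 to 94.3 in DRG, against 16.9 to 20.1 in epidermis. Cacna1b, for the N-type channel of nerve terminals, had 89.8 to 91.4 in DRG, against 40.2 to 44.7 in epidermis, and was above background in both.

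Channels of sensory transduction differed more among themselves. Of 22 measured genes 12 were higher in DRG and 1 lower, with a median of 33.98 points. Trpa1, the irritant receptor whose pore exons the study targeted in keratinocytes of its mutants, had percentiles of 86.6, 86.4 and 87.96 in DRG, against 19.9, 25.5 and 22.6 in epidermis, at least 50.98 points higher (adjusted p = 3.07e-07). It was below background on all epidermis arrays, where the control mice carry it intact. Trpv1, the capsaicin and heat receptor, had 92.8, 93.6 and 94.6 in DRG, against 30.9, 27.9 and 36.9 in epidermis, 61.7 points higher (standard error 2.27), with 1 epidermis array just above background. Piezo2, the main channel of light touch, had 97.4, 95.96 and 95.5 in DRG, against 33.7, 31.00 and 29.3 in epidermis, at least 60.3 points higher, and its 3 rows were all called. Trpm8, the cold and menthol receptor, was at least 44.9 points higher in DRG, and Trpm3, a heat-activated channel, at least 51.2.

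P2rx3, the ATP receptor subunit of pain fibres, had 97.7, 97.5 and 97.2 in DRG, against 43.4, 38.9 and 36.3 in epidermis, 57.9 points higher (adjusted p = 9.48e-07). The epidermis values lay just above background on all 3 arrays. The acid-sensing channel genes Asic2 and Asic3 were 54.2 and 49.5 points higher, and Asic1 was 20.3 points higher, short of 25, with epidermis arrays at 47.7 to 54.4. P2rx2, which joins P2rx3 in the receptor, and Trpc1 were also above background in both tissues, at 59.97 to 63.4 in DRG, against 46.5 to 50.3 in epidermis, for the one, and at 77.5 to 80.4 in DRG, against 57.9 to 62.9 in epidermis, for the other. Stoml3, a regulator of touch channels, was below background in both tissues, so no difference is given. The member called lower was Ano1, the calcium-activated chloride channel of nociceptors and of many epithelia, at 58.8, 53.3 and 51.9 in DRG, against 87.3, 86.7 and 88.5 in epidermis, 32.9 points lower (adjusted p = 1.36e-05).

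**Figure D3:**
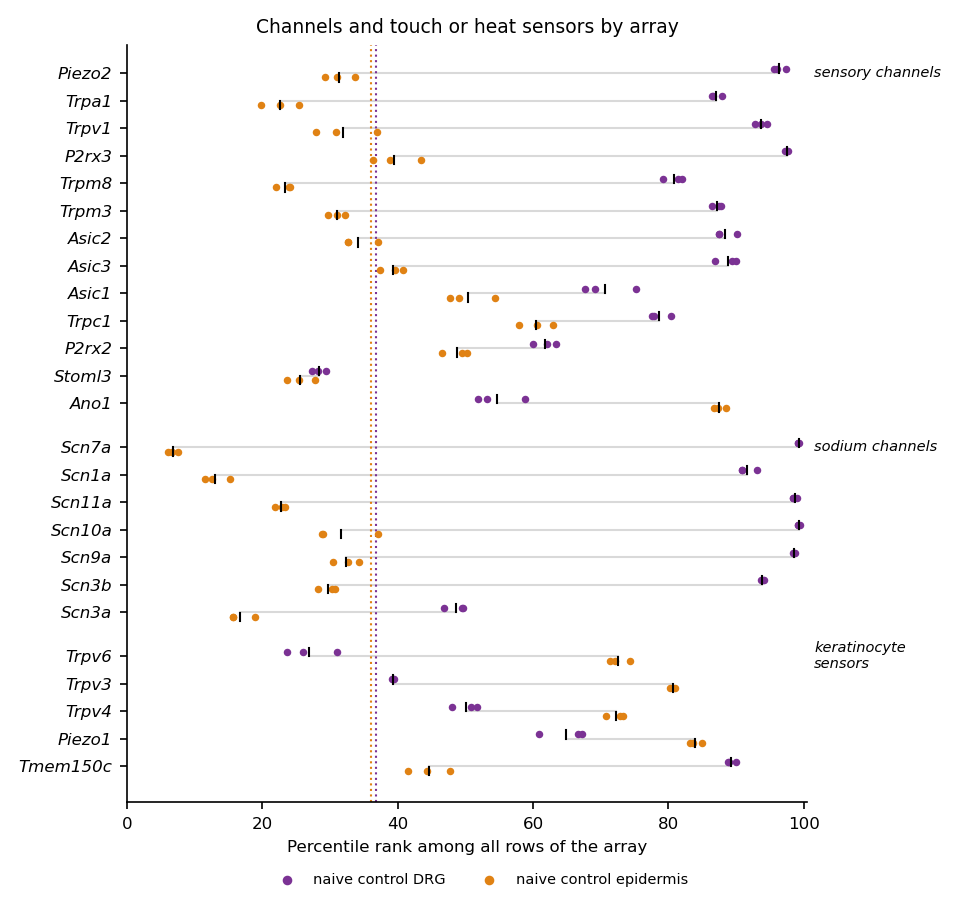
Percentile rank of sensory transduction channels, sodium channel genes and sensors described in keratinocytes on each naive control DRG array (purple) and naive control epidermis array (orange). Black ticks are means and dotted lines the mean background percentile of each tissue. Sodium channels separate the tissues throughout, Trpv3, Trpv4, Trpv6, Piezo1 and Ano1 lie further right in epidermis, and Stoml3 lies below background in both.

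Neuropeptides and the proteins that store them followed the same direction. Of 19 measured genes 14 were higher in DRG and 0 lower (median 40.69 points). Scg3 and Scg2, granins of the dense-core vesicles in which peptides are packed, were at least 63.3 and 55.7 points higher, and Pcsk1, which cuts peptide precursors, at least 51.3. Nmb, the neuromedin B gene of itch fibres, had percentiles of 92.2, 92.1 and 93.3 in DRG, against 42.9, 45.5 and 40.8 in epidermis, 49.5 points higher, and was above background in both tissues. The peptide genes Npy and Vip, named after their values were seen, were not called. Npy had 43.3, 49.9 and 43.98 in DRG, against 45.4, 48.7 and 55.5 in epidermis, with overlapping groups (adjusted p = 0.262), and Vip was below background on all 6 arrays.

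Receptors of itch and of opioids were higher for 13 of 18 measured genes and lower for 0, with a median of 37.31 points. The Mrgpr genes encode receptors of small, separate classes of skin-innervating neurons. Mrgpra3, the chloroquine receptor of itch neurons, had percentiles of 90.4, 91.4 and 92.1 in DRG, against 17.8, 15.6 and 14.04 in epidermis, at least 55.3 points higher. Mrgprb4, of neurons that respond to stroking of hairy skin, varied more between ganglia, with 76.9, 64.8 and 69.8 in DRG, against 13.7, 11.5 and 17.8 in epidermis, and was at least 34.5 points higher. Il31ra, a subunit of the receptor for the itch cytokine interleukin 31, and Cysltr2, a leukotriene receptor of itch neurons, were at least 47.6 and 32.6 points higher. Oprm1, the mu opioid receptor, had 69.3, 68.3 and 70.1 in DRG, against 38.3, 36.8 and 37.6 in epidermis, 31.6 points higher. Oprd1, the delta opioid receptor, differed by 2.79 points (adjusted p = 0.12), with its lowest DRG array, at 55.04, inside the epidermis range of 55.02 to 55.7.

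Receptors of neurotrophic factors, on which sensory neurons depend for survival and identity, were higher for 9 of 15 and lower for 1 (median 28.96 points). Ntrk3, the neurotrophin 3 receptor of proprioceptors and touch neurons, was at least 53.9 points higher. Ret and its partners Gfra1, Gfra2 and Gfra3, receptors of the GDNF family, were 58.1, 38.8, 52.2 and 51.2 points higher, with all of them above background on every epidermis array. Ngfr, the low-affinity neurotrophin receptor, which keratinocytes also make, had percentiles of 97.9, 96.1 and 96.8 in DRG, against 66.95, 68.6 and 68.3 in epidermis. Its difference was 28.96 points. Met, the hepatocyte growth factor receptor, ran the other way, with 30.4, 35.7 and 31.4 in DRG, against 67.4, 67.4 and 64.1 in epidermis, at least 29.4 points lower.

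Axonal and synaptic genes were nearly uniform. Of 21 measured genes of neurofilaments and the axonal cytoskeleton 18 were higher in DRG and 0 lower (median 50.75 points), and all 21 were above background on every DRG array. Nefm, the medium neurofilament subunit, was at least 62.3 points higher, and the axonal motors Kif5a and Kif1a were 57.7 and 55.9 points higher. Of 24 genes of synaptic vesicles and release 22 were higher and 0 lower (median 56.61 points). Slc17a6, the vesicular glutamate transporter of most sensory neurons, had percentiles of 97.02, 96.7 and 96.9 in DRG, against 25.02, 25.2 and 21.7 in epidermis, at least 60.9 points higher. Snap25, a membrane fusion protein, had 99.7, 99.7 and 99.7 in DRG, against 37.3, 36.7 and 32.4 in epidermis, 64.2 points higher, and its epidermis values were above background on 2 of 3 arrays. Syt11, Rab3c and Sv2b, of vesicle traffic and the vesicle membrane, were at least 63.1, 59.2 and 60.1 points higher.

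Transcription factors and RNA-binding proteins that define neurons were higher for 9 of 20 and lower for 0, with a median of 21.33 points, so more of this list fell short of the call. Isl1 and Pou4f1, which together specify sensory neurons, had percentiles of 92.2, 92.8 and 93.2 and of 80.9, 74.95 and 76.1 in DRG, against 43.02, 35.3 and 32.7 and 27.2, 32.00 and 31.1 in epidermis. Isl1 was 55.8 points higher and Pou4f1 at least 41.3. Ebf1, a factor shared by sensory neurons and B cells, and Elavl4 and Elavl2, neuronal RNA-binding proteins, were at least 61.4, 60.4 and 59.2 points higher. Among 18 splicing factors 7 were higher and 2 lower. Rbfox1 and Rbfox3, the second known as the neuronal marker NeuN, were 55.1 and 55.8 points higher. Esrp1 and Esrp2, the epithelial splicing regulators, were the members that were lower, Esrp1 by at least 60.8 points and Esrp2 by 51.9. Of 11 genes of the RE1 silencing machinery, which keeps neuronal genes off in other tissues, 0 were higher and 1 was lower. That gene was Rest, the factor that binds RE1 sites. It had 51.5, 50.2 and 46.5 in DRG, against 75.95, 75.6 and 74.3 in epidermis, 25.9 points lower (adjusted p = 1.11e-05), just past the limit of 25. Over all rows 5.51% were lower, and on the mutant arrays 0 of the 11 genes were called lower.

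Many glial genes, though not all, were higher in DRG. Of 21 Schwann cell and myelin genes 12 were higher in DRG and 1 lower (median 29.82 points), and of 14 satellite glial genes 7 were higher and 0 lower (median 26.75 points). At the adjusted p alone 17 of the 21 were higher and 4 lower, and 11 of the 14 were higher and 1 lower. Among those lower were Fa2h, Egr2 and Erbb3, named after their values were seen, at -21.06, -9.79 and -6.08 points. Cdh19, a cadherin of Schwann cells and their precursors, had percentiles of 89.05, 92.3 and 92.01 in DRG, against 3.12, 3.53 and 3.51 in epidermis, at least 55.1 points higher. S100b, a calcium-binding protein of glia, and Gjc3, a glial connexin, were at least 59.9 and 54.5 points higher. Mbp, myelin basic protein, had 92.4, 94.3 and 93.7 in DRG, against 64.04, 66.5 and 67.4 in epidermis, and was 27.4 points higher, above background in both. Kcnj10, the potassium channel of satellite glia, was at least 40.1 points higher. The member called lower was Mpzl2, an adhesion protein related to the myelin protein zero but made by epithelia. It had 42.6, 61.4 and 48.3 in DRG, against 96.7, 96.6 and 96.8 in epidermis, 45.9 points lower. Apoe, the lipid carrier of satellite glia, chosen after its values were seen, was at 99.7 to 99.8 in DRG and 98.7 in epidermis (adjusted p = 0.139). The arrays did not overlap, and ranks this near the top have little room to differ.

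Vessels and connective tissue were on the side of the ganglion. Of 18 endothelial and mural genes 7 were higher and 0 lower (median 18.04 points), and of 20 fibroblast and matrix genes 7 were higher and 0 lower (median 19.46 points). Emcn, a sialomucin of capillaries and veins, had percentiles of 74.2, 82.01 and 78.8 in DRG, against 13.6, 19.6 and 15.8 in epidermis, and Rgs5, of pericytes, had 89.00, 90.4 and 90.6 in DRG, against 17.1, 18.4 and 19.8 in epidermis. Lum, the collagen-binding proteoglycan lumican, had 73.03, 80.1 and 78.1 in DRG, against 5.94, 5.45 and 6.57 in epidermis. These 3 were at least 42.3, 53.99 and 41.1 points higher. Fn1, which encodes fibronectin, had 70.7, 90.6 and 79.2 in DRG, against 35.9, 34.6 and 37.1 in epidermis. Replicate 2 was highest of the DRG arrays for Fn1, for Lum, for Emcn and in the mean of the 20 fibroblast genes, which was 71.27, 78.04 and 74.79 on the 3 DRG arrays, against 53.36 to 54.31 in epidermis.

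Of 16 macrophage and blood leukocyte genes 5 were higher in DRG and 0 lower (median 9.05 points), or 3 higher with dim members at background. Lyz2, the lysozyme of macrophages and neutrophils, had percentiles of 83.7, 89.2 and 88.2 in DRG, against 22.3, 16.7 and 19.8 in epidermis, at least 51.05 points higher, and Mrc1, the mannose receptor of tissue macrophages, was at least 29.2 points higher. Of 13 genes of Langerhans cells and dendritic epidermal T cells 0 were higher and 3 lower, with a median of -2.12 points. Cd207, which encodes langerin, the lectin that names Langerhans cells, had 32.1, 34.2 and 28.7 in DRG, against 65.95, 64.1 and 64.8 in epidermis, at least 28.1 points lower. The others were Epcam, an adhesion gene that epithelia also use, by at least 34.98 points, and Mfge8, a secreted protein that binds dying cells, by 29.6. The other 10, among them T cell and class II antigen presentation genes, were not called and lay between -12.97 (Cd3g) and 24.14 (Thy1) points. Of 13 genes of melanocytes and Merkel cells 3 were higher and 1 lower, or 3 and 0 with dim members at background. The higher ones were Isl1 and Piezo2, also on the lists of sensory neurons, and Sox2, also on that of Schwann cells. The uncalled members lay between -19.89 (Krt8) and 4.01 (Tyrp1) points. The melanocyte enzyme Dct was at least 13.8 points lower, and the factor Sox2, which Merkel cells share with glia, was at least 28.5 points higher. Of 12 genes of red cells, muscle and fat 1 was higher, close to the 8.32% of all rows, and 0 with dim members at background. The 1 was Car3, a carbonic anhydrase of muscle and fat, at 50.6 to 62.1 in DRG, against 19.4 to 21.99 in epidermis, at least 21.7 points higher.

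Of 21 basal keratinocyte genes 0 were higher in DRG and 13 lower (median -35.47 points), and of 10 keratins of differentiating cells 0 were higher and 9 lower (median -57.89 points). Krt5, the partner of Krt14, had percentiles of 43.6, 44.2 and 43.2 in DRG, against 99.5, 99.5 and 99.5 in epidermis, 55.8 points lower (standard error 0.59, adjusted p = 2.21e-08). Krt9, a keratin particular to palm and sole skin, had 24.00, 27.1 and 27.8 in DRG, against 98.6, 98.9 and 99.00 in epidermis, at least 62.03 points lower. Krt2, of the uppermost living layer, had 36.95, 36.95 and 48.5 in DRG, against 99.96, 99.96 and 99.95 in epidermis, 59.1 points lower, with DRG replicate 3 highest. Krt17, Krt6a and Krt16, keratins of stressed and of glabrous epidermis, were at least 57.9, 51.4 and 51.9 points lower. Dst, chosen after its values were seen, is listed with basal keratinocytes because its epithelial form anchors keratins, while another form serves neurons. It had 98.5, 98.00 and 97.9 in DRG, against 76.4, 76.3 and 76.4 in epidermis, 21.8 points higher, and the row does not tell the forms apart.

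The cornified envelope was the largest of the epidermal lists. Of 41 measured genes 0 were higher in DRG and 33 lower (median -58.69 points, or -51.13 with dim members at background), and 19 of the 33 were below background on all DRG arrays. Many of them lie together on chromosome 3, in the epidermal differentiation complex. There Ivl, which encodes involucrin, an early envelope protein, had percentiles of 23.6, 22.5 and 24.3 in DRG, against 93.3, 91.5 and 91.2 in epidermis, at least 55.2 points lower. Late envelope genes of the same region, Lce1f, Lce1d and Lce1c, were at least 59.7, 61.05 and 63.04 points lower, and so was Rptn, the repetin gene, by at least 58.5. Elsewhere Casp14, a caspase of cornification, was at least 58.8 points lower. Of 11 genes listed with transglutaminases and deiminases, the enzymes that cross-link or modify envelope proteins, 0 were higher and 5 lower. The list also holds the proteases Casp14, Asprv1 and Blmh, and Casp14 and Asprv1 were among the 5. At the adjusted p alone 8 were lower and 2 higher. Those higher were Padi2 and Tgm2, by 23.53 and 12.26 points, named after their values were seen. Tgm3 and Tgm1 were 58.8 and 47.4 points lower, and both were above background in DRG, at 37.9 to 41.6 and 46.8 to 48.9.

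Of 12 desmosome genes 0 were higher in DRG and 9 lower (median -58.72 points, or -42.05 with dim members at background). Dsg3 and Dsc3, cadherins of the basal layers, and Dsg1b, of the upper ones, were at least 57.8, 62.3 and 61.7 points lower. Dsp, the desmoplakin gene, had percentiles of 40.1, 38.8 and 42.96 in DRG, against 99.8, 99.8 and 99.8 in epidermis, 59.2 points lower, and was above background in both. Of 19 genes listed with epithelial junctions 0 were higher and 14 lower (median -40.09 points). This list also holds the splicing regulators Esrp1 and Esrp2, given above, which were among the 14. Gjb2, a connexin of keratinocytes, was 57.3 points lower. Gja1, the connexin 43 gene, which glia and fibroblasts also use, had 70.1, 70.99 and 72.01 in DRG, against 98.1, 98.2 and 98.2 in epidermis, 27.1 points lower. Cldn8, a claudin of tight junctions, was at least 30.1 points lower.

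Proteases, their inhibitors and lipid enzymes complete the barrier. Of 24 protease and inhibitor genes 0 were higher in DRG and 20 lower (median -56.41 points). Spink5, the inhibitor of the kallikreins that shed cornified cells, had percentiles of 28.3, 26.2 and 27.2 in DRG, against 99.1, 99.2 and 99.1 in epidermis, at least 62.3 points lower. Of 23 genes of barrier lipid synthesis 0 were higher and 11 lower, with a median of -15.70 points. Sptlc3, Abca12, Aloxe3, Pnpla1, Lipm and Sdr9c7, which act in the ceramides and lipids particular to the cornified layer, were at least 58.4 to 60.5 points lower. All 19 genes of cholesterol synthesis, for comparison, stayed within 25 points (0 higher, 0 lower, median -0.59 points).

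Of 21 epidermal transcription factors 0 were higher in DRG and 15 lower (median -49.47 points). Trp63, the p63 gene that stratified epithelia require, had percentiles of 44.3, 44.4 and 42.4 in DRG, against 96.8, 96.8 and 96.9 in epidermis, 53.2 points lower (adjusted p = 5.88e-08). Tfap2c, Gata3 and Ehf, factors of epithelial differentiation, were at least 56.5, 52.5 and 56.8 points lower. Grhl1, a grainyhead-like factor that controls desmosomal genes, had 34.05, 38.6 and 36.4 in DRG, against 96.1, 95.9 and 95.8 in epidermis, 59.6 points lower. The DRG values of these 5 genes were near or below background and the epidermis values well above it.

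Genes of the cell cycle, which the epidermis renews itself with and which mature neurons do not use, were lower in DRG for 23 of 29 and higher for 0 (median -36.19 points). Top2a, the topoisomerase of dividing cells, had percentiles of 32.95, 31.6 and 34.1 in DRG, against 92.2, 89.3 and 90.5 in epidermis, at least 53.9 points lower, with both of its rows called. Ccnb2 and Ccna2, cyclins of late cycle stages, were 54.1 and 50.1 points lower. Immediate-early and stress genes, which cells switch on within minutes of a stimulus and also during dissection, were lower for 13 of 27 and higher for 0 (median -20.45 points). Fos had 47.6, 46.99 and 46.05 in DRG, against 95.5, 95.5 and 93.6 in epidermis, 48.01 points lower, and Egr1 had 50.2, 49.6 and 53.5 in DRG, against 95.1, 94.9 and 95.1 in epidermis, 43.9 points lower. Zfp36, which destabilises inflammatory messages, was 47.1 points lower. The dispase incubation of the epidermis cannot be told apart from tissue in these values.

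Several sensors have been described in keratinocytes as well as in neurons. Of 14 such genes 1 was higher in DRG and 2 lower (median -9.89 points), beside 8.32% higher and 5.51% lower over all rows. Trpv3, a warmth channel of keratinocytes, had percentiles of 39.1, 39.3 and 39.4 in DRG, against 80.2, 80.99 and 80.6 in epidermis, 41.3 points lower (adjusted p = 5.13e-08), with DRG values just above background. Trpv6, a calcium-selective channel of epithelia, was at least 35.8 points lower. Trpv4, a channel opened by warmth and osmotic swelling, and Piezo1, the mechanically gated channel of many tissues, were 22.1 and 19.1 points lower, both short of 25. Piezo1 had 60.9, 67.2 and 66.6 in DRG, against 83.1, 84.9 and 83.7 in epidermis, and 1 of its 3 rows passed the call. The gene that was higher was Tmem150c, also called Tentonin 3, at 88.9 to 89.9 in DRG, against 41.6 to 47.8 in epidermis.

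Signals between the tissues were set out as 24 pairs of a ligand that skin can release and a receptor sought in DRG. Rows for both were present in 17 pairs. Ednrb is also on the satellite glial list and Kdr on the endothelial one, and whole DRG does not tell which cells carry a receptor. The ligand was above background on all 3 epidermis arrays in 12 pairs, and in 10 of them the receptor was also above background on all 3 DRG arrays. The receptor was higher in DRG in 8 of the 17 pairs and the ligand lower in DRG in 1, so that 0 pairs had a ligand lower and a receptor higher in DRG. The pair with its ligand lower was Il18, an interleukin of keratinocytes, with percentiles of 41.9, 44.00 and 43.8 in DRG, against 95.3, 94.9 and 95.2 in epidermis, 51.9 points lower, and its receptor gene Il18r1, which was below background on all 6 arrays. Nrtn, the neurturin gene, had 57.5, 58.3 and 53.5 in DRG, against 75.9, 77.6 and 76.1 in epidermis, 20.1 points lower and so short of the call, while its receptor Gfra2 had 97.2, 95.8 and 95.6 in DRG, against 41.7, 44.6 and 45.5 in epidermis. Edn1, the endothelin 1 gene, had 42.4, 39.3 and 42.9 in DRG, against 59.5, 58.8 and 66.99 in epidermis, 20.2 points lower and likewise short, and its receptor Ednrb, at 92.8, 92.2 and 93.9 in DRG, against 34.98, 39.1 and 35.8 in epidermis, was 56.4 points higher. In neither pair did the DRG and epidermis arrays overlap, for ligand or receptor, which was also so for 75.7% of all rows.

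Other pairs did not divide between the tissues. Bdnf, a neurotrophin, had percentiles of 56.8, 55.9 and 55.4 in DRG, against 56.4, 56.04 and 55.3 in epidermis, with overlapping groups (difference 0.11 points, adjusted p = 0.897). Gdnf and Artn, ligands of Gfra1 and Gfra3, were within 5.92 and 3.50 points between tissues. The receptor genes Il6ra and Il7r were lower in DRG. Il6ra had 57.1, 61.7 and 57.4 in DRG, against 91.9, 91.5 and 92.2 in epidermis, 33.1 points lower, while Il6 was below background on every array. Cxcl12, a chemokine, was higher in DRG by at least 22.8 points and its receptor Cxcr4 by 42.5. Over all 25 receptors listed for skin signals 13 were higher and 3 lower (median 28.96 points). Over 24 keratinocyte ligands 2 were higher and 2 lower, or 1 and 2 with dim members at background. These ligand counts are close to the shares of all rows, 8.32% higher and 5.51% lower. Il1a, the alarm cytokine stored in keratinocytes, was, with Il18, one of the ligands that were lower, with 9.78, 10.02 and 7.29 in DRG, against 81.2, 83.1 and 80.3 in epidermis, at least 44.7 points lower. Penk, an enkephalin precursor, was 35.2 points higher.

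**Figure D4:**
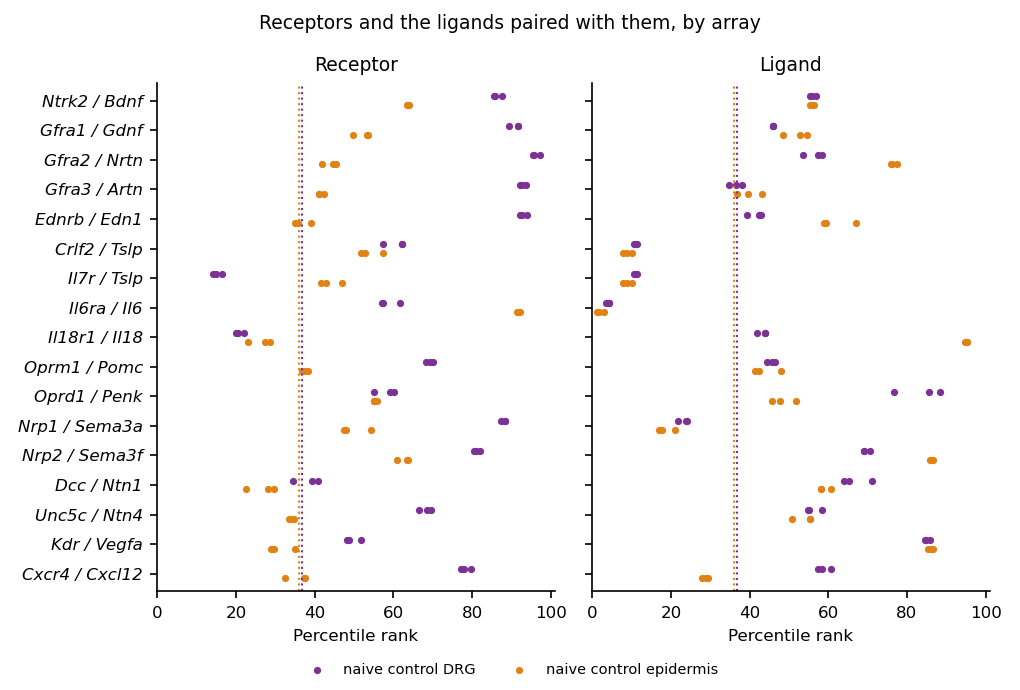
Percentile rank of 17 receptors (left panel) and of the ligand paired with each (right panel) on every naive control DRG array (purple) and naive control epidermis array (orange), with receptor and ligand named on each line and dotted lines at the mean background percentile. Receptors such as Gfra2, Gfra3, Ednrb and Nrp1 lie further right in DRG, and Il18 is the ligand with the widest gap towards epidermis.

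ATP that skin cells release, and its breakdown outside the cell, were covered by 15 genes, of which 2 were higher in DRG and 3 lower (median 3.96 points). Entpd1 and Entpd3, enzymes that break ATP down at the cell surface, had percentiles of 77.1, 81.2 and 80.95 and 93.4, 92.5 and 93.4 in DRG, against 33.1, 33.8 and 34.6 and 49.6, 54.05 and 53.6 in epidermis. Entpd1 was at least 43.7 points higher and Entpd3 40.7. The 3 that were lower form channels, the connexin genes Gjb2 and Gja1 given above and Panx3, a pannexin, at 21.9, 23.8 and 21.4 in DRG, against 68.2, 69.05 and 72.01 in epidermis, at least 32.9 points lower.

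Genes that most cells use differed little. Of 32 ribosomal protein genes, 39 respiratory chain genes and 29 proteasome genes 0 were called in either direction, with medians of -2.84, 1.42 and 0.37 points. Without the limit of 25 points, 22 of the 32 ribosomal genes were lower in DRG and 0 higher. Rps19 and Rpl14 had the widest of these differences, at 72.4 to 77.2 and 66.9 to 72.1 in DRG, against 93.6 to 94.3 and 87.4 to 88.9 in epidermis. Near the top of the scale ranks have little room to differ. Actb, the beta actin gene, was at 99.8 in DRG and 99.8 to 99.9 in epidermis, and Ywhaz, a 14-3-3 protein gene, at 99.6 to 99.7 in DRG and 99.4 to 99.5 in epidermis. Glycolysis showed tissue forms of its enzymes. Of 16 genes Eno2 and Slc2a3, the neuronal enolase and glucose transporter, were 60.1 and 52.5 points higher, and Hk2, a hexokinase, was 33.4 points lower, with 13 short of the call.

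Of 26 genes that the study names, 7 were higher and 6 lower in DRG. Besides the channels, these included Adh1, an alcohol dehydrogenase that oxidises retinol, with percentiles of 53.8, 52.01 and 58.5 in DRG, against 97.3, 97.9 and 96.96 in epidermis, 42.6 points lower. Adh6a, a related enzyme, varied between epidermis arrays, with 18.4, 18.97 and 19.3 in DRG, against 75.6, 87.3 and 69.7 in epidermis, at least 40.7 points lower. Ptgs2, the inducible cyclooxygenase, had 37.5, 39.95 and 36.1 in DRG, against 94.8, 93.97 and 92.7 in epidermis, 55.9 points lower. Mgarp, a mitochondrial protein gene, was at least 8.55 points lower. Slc15a2, a peptide transporter, had 34.8, 34.1 and 48.4 in DRG, against 58.8, 62.6 and 67.2 in epidermis, and was highest among DRG arrays in replicate 3. Lynx1, a Ly6-type modulator of acetylcholine receptors, was above background in both tissues and 15.6 points higher in DRG. Nr4a1, an immediate-early nuclear receptor, was 14.2 points lower. Il1b and Il6 were below background on all 6 arrays of these uninflamed tissues.

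MicroRNA loci were among the rows, and the ones described here were chosen after their values were seen. A row measures transcript from the locus, which may be its precursor, and does not tell which arm is made. Of 259 loci 18 were higher in DRG and 10 lower, shares that do not exceed those of all rows (8.32% and 5.51%), and 7 and 3 where dim values were put at background. In all, 139 exceeded background on none of the 6 arrays. The mature sequences of 7 loci that the results turn on are shown with their seeds (bases 2 to 8, which pair with targets) in capitals, 5′ to 3′, from RefSeq, to show that they share no seed.
miR-382-5p, chr12:109733781-109733802, plus strand: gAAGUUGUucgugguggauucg
miR-329-3p, chr12:109713541-109713562, plus strand: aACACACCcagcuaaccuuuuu
miR-543-3p, chr12:109717304-109717325, plus strand: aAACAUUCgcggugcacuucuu
miR-138-5p, chr8:94324312-94324334, plus strand: aGCUGGUGuugugaaucaggccg
miR-203-3p, chr12:112130927-112130948, plus strand: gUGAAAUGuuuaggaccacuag
miR-205-5p, chr1:193507503-193507524, minus strand: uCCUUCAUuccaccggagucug
miR-221-3p, chrX:19146307-19146329, minus strand: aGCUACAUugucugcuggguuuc
The first 3 lie between the genes Meg3 and Mirg, in an imprinted region of chromosome 12 that is transcribed from the maternal copy. Of 39 loci there 13 were higher in DRG and 0 lower (median 18.06 points), against 5 higher and 10 lower of the other 220 (median -0.89 points). With the lower tissue at background where it was dim, 4 of the 39 loci and 3 of the 220 were higher, and 0 and 3 lower, by at least 25 points. Mir382 had percentiles of 60.9, 69.3 and 69.3 in DRG, against 9.45, 10.2 and 8.58 in epidermis, at least 30.5 points higher, and Mir329 and Mir543 were at least 33.1 and 17.6 points higher. Meg3, the long noncoding RNA at the start of the region, had 98.7, 98.7 and 98.96 in DRG, against 40.1, 38.6 and 44.7 in epidermis, 57.7 points higher, and Rian, another of its noncoding RNAs, was at least 49.1 points higher. Outside it, Mir138-2 was 42.2 points higher. On the lower side stood Mir203, which in mouse skin promotes differentiation, with 3.40, 4.56 and 3.81 in DRG, against 52.01, 50.2 and 53.3 in epidermis, at least 15.01 points lower, Mir205, an epithelial microRNA, at least 20.3 points lower, and Mir221, at least 18.6. Mir23a and Mir27a, neighbours on chromosome 8, were 36.6 and 38.2 points lower and above background in both tissues.

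The same comparison was made on 6 further arrays, from naive K14Cre-Trpa1 fl/fl mice. In these mice Cre cuts the exons for the Trpa1 pore region out of the DNA of keratin 14-expressing cells. The paper could not observe a loss of Trpa1 mRNA in their epidermis, where it detected very little. These arrays share no sample with the control arrays, but they share probes, dissection and the separate distribution of each tissue. The study kept its control and mutant mice as separate colonies, so genotype cannot be told apart from colony here. In mutant mice 2005 rows were higher in DRG (8.56%) and 1255 lower (5.36%). Of the 1948 rows higher in control DRG 1852 were called higher in mutant DRG, and of the 1290 lower 1181 were called lower, with 0 called in the opposite direction. Over the 23410 rows the differences of the genotypes correlated at a Pearson's r of 0.99, a description across rows that are not independent, and the median gap between them was 1.29 points. The tissue difference itself differed between genotypes for 10 rows at an adjusted p under 0.05 (limma, interaction term). Lynx1 was 29.2 points higher in mutant DRG than in mutant epidermis, against 15.6 points in control mice, with epidermis means of 65.2 in mutant and 79.8 in control mice (interaction adjusted p = 0.000825). Nr4a1 was 12.6 points higher in DRG in mutant mice, against a difference of -14.15 points in control mice. Pla2g4e, a phospholipase, had DRG means of 38.5 in mutant and 69.9 in control mice, beside epidermis means of 87.9 in mutant and 85.9 in control mice.

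**Figure D5:**
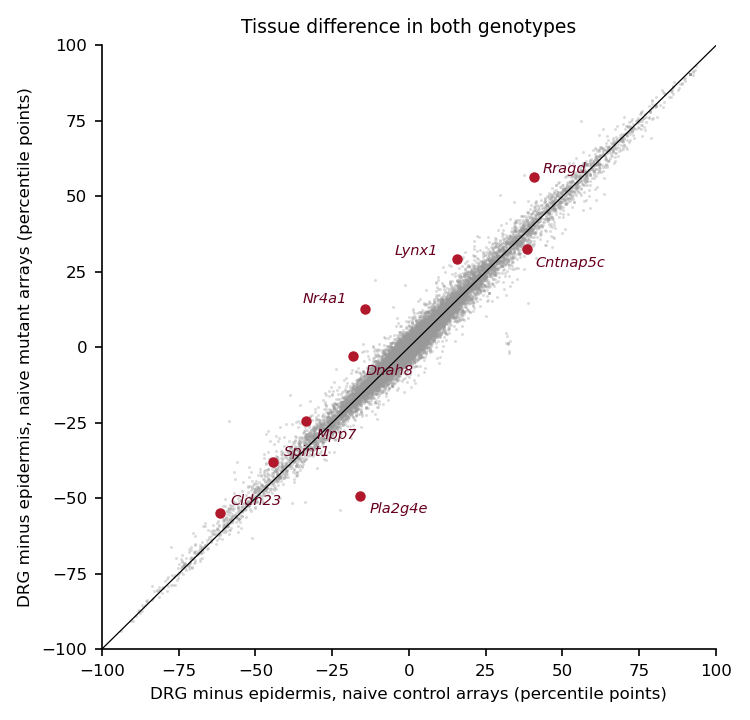
Difference in percentile rank between naive DRG and naive epidermis for each of 23410 rows, in control arrays (x axis) and mutant arrays (y axis), with a line where both are equal. Red points are the 9 named genes whose tissue difference differed between genotypes, among them Pla2g4e below the line and Nr4a1 and Lynx1 above it.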

How the data were processed

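Naive DRG and epidermis were hybridised, 100 ng of RNA each, to Mouse Gene ST arrays of Affymetrix. Values as deposited by the authors are log2 signals after RMA, which subtracts background, sets arrays to a common distribution and summarises probes. The submitters' processing notes name RMA and Partek, and no versions. Each tissue had a distribution of its own, apart by 0.906 to 0.972 log2 units between tissues and by at most 0.107 within one, so the deposited values were replaced by percentile ranks over all 35556 rows of the array (100 times rank less 0.5 over the number of rows, ties averaged). The file holds 0 missing values. In the platform's annotation 23410 rows are paired with at least 1 gene, of which 21789 have exactly 1 (19938 genes) and 1621 several, and 12146 are unnamed. Genes are named only from rows with 1 gene, and the row with the highest mean percentile stands for a gene with several. Genes without such a row were not analysed here.

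Groups were taken from the labels, 3 arrays in each. Percentiles were compared with lmFit and eBayes of limma 3.58.1 (R 4.3.3, data.table, version 1.17.8), two-sided, on the 6 arrays compared, with Benjamini-Hochberg adjustment over 23410 rows. The difference between genotypes in the tissue difference was an interaction term in a fit of all naive arrays. Ranks and counts were made in Python 3.11.15 with scipy 1.17.1, pandas 2.3.3 and numpy 2.4.6, the figures used matplotlib 3.10.9, and the fit was tested on simulated data. Promoter and microRNA sequences came from RefSeq (GRCm38.p6).

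The comparison, its gene lists (40 lists, 797 of 873 entries measured) and the pairs were chosen with earlier results of these data known. Named genes are the 15 widest differences in each direction among called rows whose groups do not overlap, up to 6 members per list, up to 3 called against a list's direction, the genes the study names, the ligands and receptors, and the 10 genes highest on every array. Mbp, Krt10, Lor and Ivl are markers, and other genes outside the rule are said to be chosen after their values were seen, as were Dnah8, Cntnap5c, Mpp7, Spint1, Pla2g4e, Rragd and Cldn23, which the interaction test called. Alternatives were other scalings of the values, filters, thresholds and fits, the replicate number as a block, leaving out each array, and, chosen after seeing the data, a common floor at the highest background percentile of the 6 arrays and, for the genotype difference, values raised to their array's background.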

Additional observations from a re-analysis of the deposited data

Results flagged for a closer look

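The tissue difference (DRG minus epidermis) differed between mutant and control mice, by a test of that difference itself, for 10 rows, of which 9 are paired with 1 gene (limma, interaction term, adjusted p under 0.05, 3 arrays per group). The values are differences in percentile points, mutant minus control. Lynx1, a modulator of acetylcholine receptors, gave 13.51 (adjusted p = 0.000825), with means of 94.32 in mutant and 95.40 in control DRG, and 65.17 in mutant and 79.76 in control epidermis. The 3 mutant epidermis arrays were all below the 3 control ones. Nr4a1, an immediate-early gene, gave 26.78 (adjusted p = 0.0231), with means of 67.19 in mutant and 90.25 in control epidermis, and Rragd, a GTPase of amino acid sensing, gave 15.49 (adjusted p = 0.0131), with means of 30.39 in mutant and 44.18 in control epidermis. The mutant epidermis arrays of Rragd were all below background, and its difference was 9.66 with values below background put at it, an alternative chosen after seeing the data and not tested. For these 3 genes the wider gap between genotypes lay in epidermis.

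For 4 others it lay in the ganglion. Pla2g4e, a phospholipase A2, gave -33.30 (adjusted p = 0.0131), with means of 38.51 in mutant and 69.86 in control DRG, and Dnah8, a dynein heavy chain, gave 15.24 (adjusted p = 0.0231), with means of 43.45 in mutant and 30.61 in control DRG. The control DRG arrays of Dnah8 were all below background, and its difference was 9.03 with those values put at background. Mpp7, a polarity protein, gave 9.12, and Spint1, an inhibitor of epithelial proteases, gave 6.31, both with higher DRG means in mutant mice (62.96 in mutant and 56.46 in control for Mpp7, 56.33 in mutant and 50.01 in control for Spint1). Cldn23, a claudin, gave 6.61, with means of 78.96 in mutant and 84.82 in control epidermis, and 5.62 with its DRG values, all below background, put at background. Cntnap5c, a contactin-associated protein, gave -5.73, with means of 56.65 in mutant and 59.07 in control DRG and of 23.94 in mutant and 20.63 in control epidermis, all epidermis arrays below background, and -2.64 with those values put at background. The Cntnap5c row is the dimmer of 2 for that gene. Adjusted p-values of these 4 were 0.0131 to 0.0494. The mice were of mixed genetic background, and the part of it in these differences was not tested. Control and mutant mice were bred as separate colonies for many generations, and the paper raises genetic drift as a concern. Genotype and colony therefore cannot be told apart in these differences. Groups of 3 arrays were too small for a check for outlying samples.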

How the results depend on the processing

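Scaling set most of the counts. With the deposited log2 values, whose median over rows was 0.96 higher in DRG, 18373 rows were higher and 3288 lower in DRG, so that 84.8% of calls were higher, against 49.4% by rank. With each array centred on its median, which left the median row at -0.20, the share was 37.6%. At 2-fold or more, 11247 rows were higher with deposited values, 3001 were higher and 4745 lower after centring, and 3581 were higher and 3185 lower after joint quantile normalization. Limits of 10 and 50 points in place of 25 gave 4435 and 606 rows higher and 3883 and 361 lower. A common floor at background, chosen after seeing the data, gave 1592 higher and 1128 lower among 18306 rows. Leaving out each array in turn gave 7508 to 7738 rows higher and 7704 to 7862 lower at the adjusted p alone, 1929 to 1962 higher and 1290 to 1300 lower at 25 points or more, and 1969 to 2049 higher and 1226 to 1268 lower in mutant mice. The other alternatives stayed within 1.5 times of these counts.

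The labels number the replicates of both tissues 1 to 3. Deviations from the tissue mean correlated at 0.0129, 0.00545 and -0.0528 for arrays with the same number. For arrays with different numbers they correlated at -0.0479 to 0.0421. With 3 arrays of each of these unlike tissues, such values cannot show whether samples came from the same mouse. With the replicate number as a block 7720 rows were higher and 7826 lower at the adjusted p, and 1948 and 1290 at 25 points or more.

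Of 289 genes, the direction of 9 turned with the deposited log2 values, where their log2 differences (DRG minus epidermis) were 1.03 for Artn, 0.21 for Dnah8, 0.83 for Gdnf, 0.86 for Il18r1, 1.20 for Il1b, 0.65 for Itpripl2, 0.94 for Npy, 0.54 for Vegfa and 0.86 for Vip. After median centring 3 turned, Il6 at -0.25, Txn1 at -1.06 and Ywhaz at -1.10. None turned by the other settings run on these genes. Most of the 12 are at or below background or near 0 by rank. Signal over background limits what ranks can show, since order below background is not measured and ranks near 100 are compressed.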

Other observations

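The families given here were chosen after their values were seen. Of 92 potassium channel genes 33 were higher in DRG and 4 lower (median 13.99 points). Kcnh7, of the ERG family, and Kcnip4 and Kcnb2, a subunit and a pore of neuronal channels, had DRG percentiles of 95.6 to 96.8, 98.8 and 95.5 to 96.6, against 14.97 to 15.9, 19.6 to 21.1 and 20.2 to 25.6 in epidermis, and were at least 60.1, 62.8 and 59.9 points higher. Kcnk6, a background potassium channel, ran the other way, at 51.7 to 57.1 in DRG, against 89.7 to 90.8 in epidermis, 36.7 points lower. Kcnk18, a channel of the same family that is made in sensory neurons, had 50.5, 47.4 and 43.2 in DRG, against 21.4, 31.6 and 25.9 in epidermis, and was at least 11.02 points higher, short of the call. Of 16 ionotropic glutamate receptor subunits 11 were higher and 0 lower (median 36.55 points), Gria4 by at least 52.5 points. Of 16 GABA-A receptor subunits 7 were higher and 1 lower, or 5 and 1 with dim members at background. Gabra2 was at least 56.05 points higher, and the member that was lower, Gabrp, is a subunit of epithelia, at 19.6, 20.6 and 19.9 in DRG, against 66.6, 67.3 and 66.6 in epidermis.

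Defence genes of the skin lay on the other side. Of 10 interleukin-1 family genes 0 were higher in DRG and 8 lower (median -62.66 points, or 7 with a median of -52.13 points where dim members were put at background), among them Il1f8, Il1f9 and Il1f5, by at least 57.3, 54.8 and 60.2 points, and the receptor antagonist Il1rn, by at least 52.4. Il33, of the same family, was above background in both tissues, at 48.1, 56.5 and 55.2 in DRG, against 51.2, 51.1 and 54.3 in epidermis (adjusted p = 0.717). Of 40 beta-defensin genes 0 were higher, 6 lower and 23 above background on none of the 6 arrays. Defb1, Defb6 and Defb14, antimicrobial peptides of epithelia, were at least 53.4, 55.1 and 41.9 points lower. Of 24 Serpinb genes 1 was higher and 12 lower.

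Hox genes, which keep a record of position along the body and limb, were called at shares close to those of all rows, which were 8.32% higher and 5.51% lower. Of 37 genes 3 were higher in DRG and 3 lower, or 1 and 2 with the lower tissue at background where it was dim. Those lower were neighbours at the end of the Hoxc cluster, Hoxc11, Hoxc12 and Hoxc13, at 19.8 to 25.3, 29.1 to 32.03 and 26.5 to 27.03 in DRG, against 58.5 to 59.9, 76.2 to 78.3 and 62.4 to 67.5 in epidermis, at least 22.6, 40.3 and 28.7 points lower. Those higher were Hoxd10, Hoxd1 and Hoxb6, at 55.97 to 64.6, 44.01 to 54.8 and 70.1 to 72.2 in DRG, against 26.00 to 29.1, 18.6 to 28.4 and 41.9 to 47.2 in epidermis.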
